A study of Mus musculus with 20 samples.

Results

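The genes described here encode the replacement histone H3.3, the proteins that deposit it in chromatin and the protein that forms the nuclear bodies where one of these proteins gathers. They are the 10 rows of the gene count table named Daxx, Atrx, Hira, Ubn1, Cabin1, Asf1a, Asf1b, H3f3a, H3f3b and Pml, of 43346 genes in all, and they were chosen by name. The table held 20 breast tumors, 1 from each of 20 female [BALB/c-neuT x FVB/J] F1 mice, which came from crosses of hemizygous BALB/c-neuT males with wildtype FVB/J females. Every tumor carried the same transgene, an activated rat Her2/neu oncogene, and arose spontaneously, and no untreated, normal or transgene-negative tissue was among the samples. The titles labelled 9 tumors Lo and 11 tumors Hi, without saying what Lo and Hi stand for, so the labels were used only as names and the purpose of that comparison was not stated. Each tumor is named below by the number in its title. The transcripts of both parental alleles were counted together, and RNA came from a piece of whole tumor.

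Histone H3.3 is made throughout the cell cycle and replaces the canonical H3 that is deposited when DNA is copied. H3f3a and H3f3b encode the same protein from separate chromosomes. DAXX binds H3.3 and, together with the chromatin remodeler ATRX, places it at telomeres, pericentric repeats and other silent chromatin, while the HIRA complex, with UBN1 and CABIN1, places it at active genes. ASF1A and ASF1B hand H3 and H4 to these and to the replication-coupled chaperones, and PML builds the nuclear bodies in which DAXX is concentrated. DAXX was also known early as a regulator of cell death and as a corepressor of transcription.

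Total counts ranged from 38765682 to 65465755 per tumor (median 49881778). The share of counts on ribosomal RNA loci ranged from 6.29% to 27.7%. The epithelial gene Epcam had 876 to 1334 CPM, that is, counts scaled by library size. Krt8 (568 to 1106 CPM) and Krt18 (505 to 1084 CPM) were also high in every tumor, so the tumors carried defining markers of epithelium. Krt19, the lowest of the 7 epithelial genes listed, had 9.45 to 52.7 CPM. The mouse gene Erbb2 had 155 to 241 CPM, and reads of the rat transgene were not told apart from it. The T cell genes Cd3d, Cd3e, Cd3g and Cd2 summed to at most 2.36 CPM. Other cell types were present: 6 fibroblast genes summed to 600 to 2267 CPM and 6 macrophage genes to 209 to 353 CPM between tumors. In bulk tumor, fewer cells of a type and less RNA per cell cannot be told apart. No source used here ties the tumors to separate litters or days, and the p-values measure the spread between tumors of separate mice.

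H3f3a (ENSMUSG00000060743, chr1:180800832-180813943, mm10) and H3f3b (ENSMUSG00000016559, chr11:116021912-116027962) were told apart by their sequence. Their coding sequences were both 411 bases long with the stop codon and differed at 95 bases (76.9% identity), 81 of them at the last base of a codon, and the longest identical run was 23 bases, well under the 100-base reads. The first 120 bases of each coding sequence (GENCODE vM21 transcripts, GRCm38) are shown because they let a read be assigned to its gene, with the bases that differ between the genes in capitals. The processed copy H3f3a-ps2 is set beside them. In this stretch it had the same bases as H3f3a, and over its whole length it differed from H3f3a at 5 bases.
H3f3a: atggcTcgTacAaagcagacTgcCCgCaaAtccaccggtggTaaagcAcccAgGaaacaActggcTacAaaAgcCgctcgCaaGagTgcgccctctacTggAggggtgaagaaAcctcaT
H3f3b: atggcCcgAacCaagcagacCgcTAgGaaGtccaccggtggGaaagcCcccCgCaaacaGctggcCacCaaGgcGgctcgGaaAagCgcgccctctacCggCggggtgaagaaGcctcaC
H3f3a-ps2: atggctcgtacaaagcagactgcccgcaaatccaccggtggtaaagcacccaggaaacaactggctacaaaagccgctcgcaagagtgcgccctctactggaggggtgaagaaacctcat

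Of the 3757 distinct 100-base words in the transcripts of H3f3a, 782 (20.8%) also occurred in a transcript of another gene, 545 of them in Gm17275, which overlaps H3f3a on chromosome 1. For H3f3b this share was 1.92%. In the count table Gm17275 held 52.6% to 64.7% as many reads as H3f3a in each tumor, and H3f3a-ps2 held 2.90% to 4.44%. The log2 CPM of H3f3a and Gm17275 correlated across tumors with r = 0.97 (a description over 20 tumors whose reads may be shared), so the H3f3a level is uncertain by the size of that overlap. Hira shared 39.3% of its words with the overlapping gene Gm28539 (81.0% to 88.2% as many reads as Hira) and Asf1a shared 39.0% with Mcm9 (47.2% to 81.9% as many). Daxx, Atrx, Ubn1, Cabin1 and Asf1b shared no such word with a transcript of another gene, and Pml shared 6 words with Mir6385.

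The histone genes stood far above their chaperones. On a scale of CPM per kilobase of the length the table gives, H3f3b reached 136 ± 15.4 (SD, n = 20) and H3f3a 72.9 ± 12.6, followed by Pml at 15.4 ± 2.36, Ubn1 at 13.6 ± 1.03 and Atrx at 9.99 ± 1.27. Cabin1 (6.76 to 10.7), Daxx (7.86 ± 1.11), Asf1a (7.19 ± 0.803) and Hira (6.49 ± 0.412) lay close together, and Asf1b was the lowest at 4.79 ± 0.867. The ranges of H3f3b, H3f3a and Pml did not overlap each other. All other neighbours in this order had overlapping ranges. Pml exceeded Ubn1 in 14 of 20 tumors, Atrx exceeded Cabin1 in 16 and Daxx exceeded Asf1a in 16, whereas Ubn1 exceeded Atrx in all 20.

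**Figure D1:**
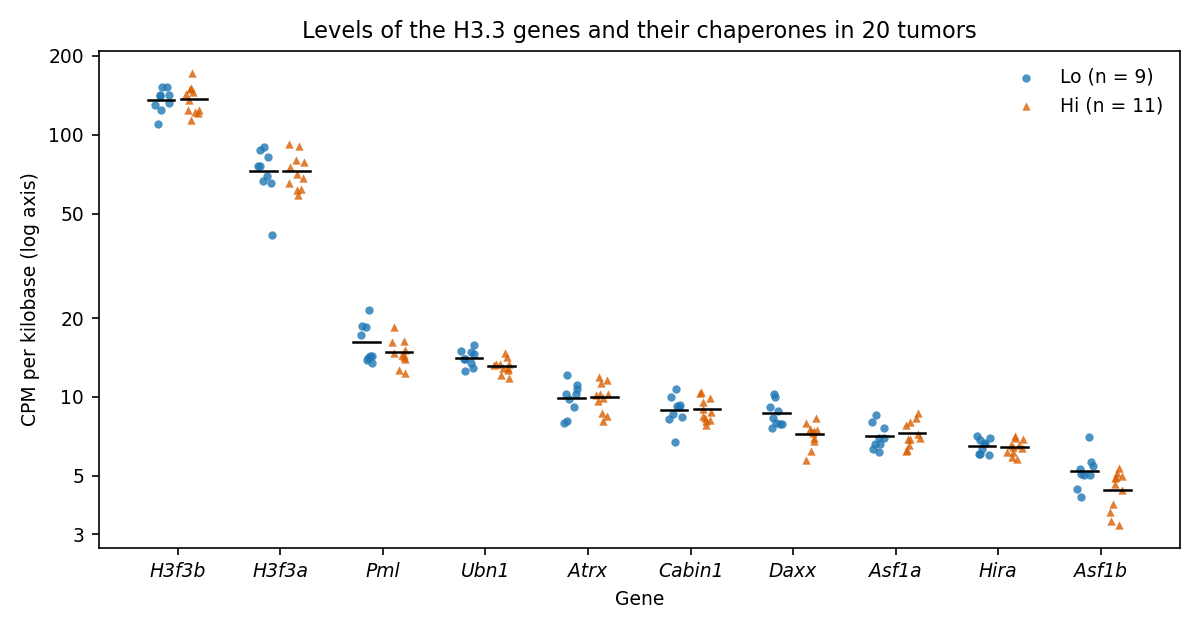
CPM per kilobase on a log axis for each of the 10 genes, ordered by mean level, with 1 point per tumor (Lo, 9 circles; Hi, 11 triangles) and a bar at each group mean. The H3.3 genes lie above all chaperones, and a single Lo tumor stands below the others for H3f3a.

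Most of these genes varied little between tumors. The SD of log2 CPM over the 20 tumors was lowest for Hira (0.092) and Ubn1 (0.109), lower than for all but 1.09% and 3.62% of the 18883 genes tested, and 8 of the 10 genes lay below the median SD of all genes tested (0.251). Only Asf1b (0.265) and H3f3a (0.270) lay above it. The SD of log2 CPM also depends on the count level. Every member had at least 395 counts in each tumor, and the genes tested were not matched to the members in level. The part of the count level in these ranks was not tested. The ratio of the highest to the lowest tumor was 1.23 for Hira, 1.79 for Daxx, 2.17 for Asf1b and 2.22 for H3f3a.

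H3f3b exceeded H3f3a per kilobase in all 20 tumors, and its share of the sum ranged from 60.0% to 77.4% (mean 65.2%). H3f3a had a CPM of 145 in tumor 4, the lowest, a median of 255 and a highest of 323 in tumor 22. H3f3b ran from 326 CPM in tumor 9 through a median of 411 to 509 in tumor 20. Tumor 4 was alone at the low end for H3f3a, while its H3f3b level (423 CPM) was near the median. The ratio of H3f3b to H3f3a was 1.88 at the mean of the log2 ratios (0.91 ± 0.28) and 3.43 in tumor 4. With the reads of Gm17275 added to H3f3a, a setting chosen after seeing the data, the mean log2 ratio was 0.24, and H3f3b was higher in 19 of 20 tumors, with tumor 1 the exception. The sum of both genes varied less than H3f3a, from 172 to 242 CPM per kilobase.

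The level of each gene was next compared with the dosage of its own chromosome, which centres every gene on its own median over the tumors and takes, in each tumor, the median of the centred log2 values over the genes of that chromosome less the median over all autosomal genes, with genes at a mean below 5 CPM and the gene itself left out. H3f3a and Atrx passed this comparison, 2 of 10 genes (permutation test, 100000 permutations of tumors, two-sided, adjusted over all 18878 genes placed on a chromosome; adjusted p = 0.00129 for H3f3a and 0.00996 for Atrx), where 11% of all genes passed with a positive sign. Chromosome 1 dosage separated 3 tumors from the rest. It was -0.30 in tumor 4, -0.23 in tumor 20 and -0.13 in tumor 19, against -0.04 to 0.07 in the other 17 tumors. H3f3a had 145, 215 and 228 CPM in these 3 tumors and 206 to 323 CPM in the others, so tumors 20 and 19 overlapped the others and tumor 4 did not. H3f3b, on chromosome 11, had 423, 509 and 368 CPM in the same 3 tumors and 326 to 454 CPM in the others. Within the other 17 tumors H3f3a followed chromosome 1 dosage with Pearson's r = 0.75 (permutation p = 0.00041) and Spearman's rho = 0.70 (permutation p = 0.00205), and r was 0.54 without the 2 tumors of these farthest from the median dosage. H3f3b gave r = 0.44 with the same dosage in these tumors (permutation p = 0.0755) and rho = 0.41 (permutation p = 0.101), and 0.17 without the same 2 tumors.

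**Figure D2:**
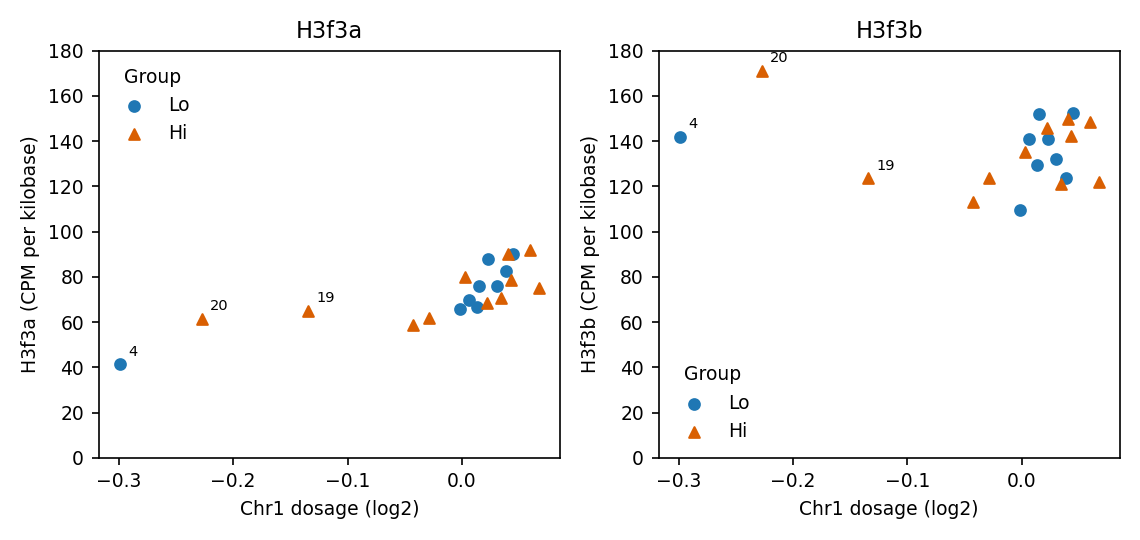
Level of H3f3a (left) and H3f3b (right) in CPM per kilobase against chromosome 1 dosage (log2), 1 point per tumor, with circles for Lo and triangles for Hi and the 3 tumors of lowest dosage numbered. H3f3a is lowest at tumor 4 on the left end of the axis, at 41.4 CPM per kilobase, and H3f3b in these 3 tumors lies at 124 to 171.

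Daxx (ENSMUSG00000002307, chr17:33909414-33915589) differed more between Lo and Hi than any other member. In Lo tumors its lowest, median and highest levels were 23.4, 25.3 and 31.5 CPM, and in Hi tumors they were 17.6, 22.7 and 25.5 CPM. The groups overlapped: 4 of 9 Lo tumors (1, 4, 13 and 14) lay above every Hi tumor, 9 of 11 Hi tumors lay below every Lo tumor, and tumors 5 and 20 were the Hi tumors inside the Lo range. The log2 difference of Hi from Lo was -0.26 (SE 0.072, edgeR quasi-likelihood test, unadjusted p = 0.00126), and it did not pass adjustment over all genes (adjusted p = 0.600). No gene of the table passed in this comparison (0% of 18883), 5.53% of genes had an unadjusted p below 0.05 (3.5% lower in Hi) and 3 of the 10 members did, all lower in Hi. By DESeq2 the number of genes past the threshold was 1, not a member, and the difference for Daxx was -0.26 (adjusted p = 0.290).

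Asf1b and Ubn1 were the other members below that unadjusted level. Asf1b was at 9.73, 11.9 and 16.4 CPM (lowest, median, highest) in Lo and at 7.59, 10.9 and 12.6 CPM in Hi, with a log2 difference of -0.25 (SE 0.105, edgeR adjusted p = 0.844). Ubn1 was at 81.3, 90.5 and 102 CPM in Lo and 76.3, 85.5 and 95.3 CPM in Hi, a log2 difference of -0.10 (SE 0.050, edgeR adjusted p = 0.891). The groups overlapped for both genes. Over the 10 members the log2 differences ran from -0.26 to 0.04 with a median of -0.01, and the median over all genes tested was -0.00098. The interferon score, defined below, moved with the labels, with a mean of 0.497 ± 1.07 (SD, n = 9) in Lo and -0.406 ± 0.652 (SD, n = 11) in Hi, and with it as a second term the difference for Daxx was -0.18 and that for Asf1b -0.15 (a fit chosen after seeing the data). The proliferation score moved too (0.469 ± 0.613 in Lo and -0.384 ± 0.942 in Hi), and with it as a second term the difference was -0.25 for Daxx and -0.08 for Asf1b. The share of counts on ribosomal loci was 18.4% ± 6.08 in Lo and 13.7% ± 3.13 in Hi. Its r with Ubn1 was 0.55 over all tumors, 0.77 within Lo and -0.16 within Hi, and with Daxx it was -0.12 over all tumors, -0.78 within Lo and -0.52 within Hi. The part of this share in the Lo and Hi differences was not tested.

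**Figure D3:**
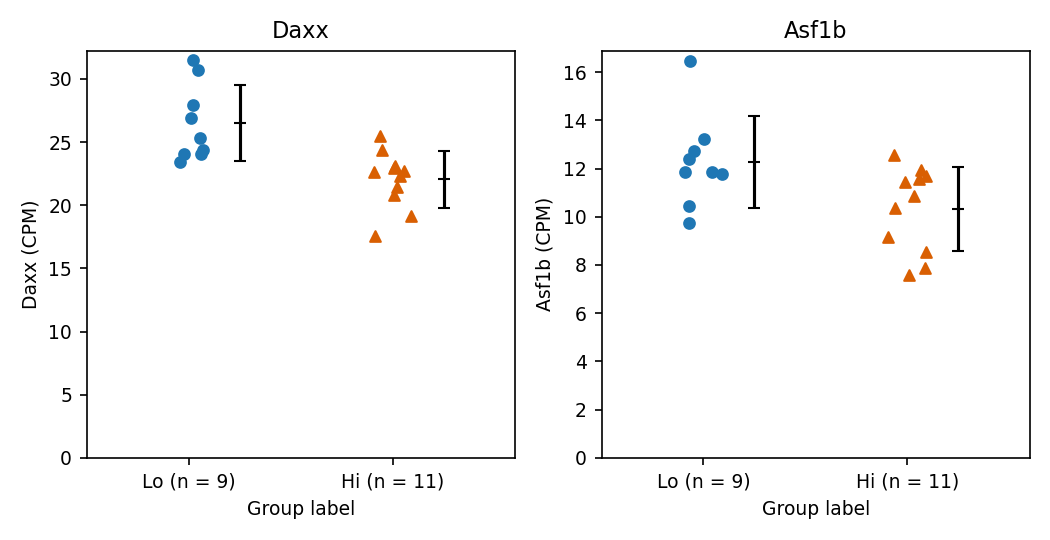
Daxx (left) and Asf1b (right) in CPM in the 9 Lo tumors (circles) and 11 Hi tumors (triangles), with the group mean and SD beside the points and the axis starting at 0. Daxx ranges from 23.4 to 31.5 in Lo and from 17.6 to 25.5 in Hi, and the points of the groups overlap.

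Asf1b (ENSMUSG00000005470, chr8:83955507-83970197), the ASF1 form known for its link to dividing cells, was the member that followed proliferation. The proliferation score was the mean over 15 mitotic genes, among them Mki67, Top2a and Plk1, of each gene's log2 CPM scaled to a mean of 0 and an SD of 1 over tumors. Asf1b was lowest in tumors 7 (7.59 CPM) and 21 (7.89 CPM), where the score was also lowest (-1.44 and -2.34), and highest in tumor 1 (16.4 CPM), where the score was highest (1.18). Its log2 level rose by 0.22 per SD of the score (SE 0.040, edgeR quasi-likelihood test, adjusted p = 0.00401), and it was the 1 of 10 members that passed, where 1.09% of all 18883 genes did (0.863% higher). The correlation was r = 0.81 (permutation p = 5e-05) with rho = 0.67 (permutation p = 0.0014), and r = 0.67 without tumors 21 and 7, the farthest from the median score. Without these 2 tumors the slope was 0.14 and no longer passed (edgeR adjusted p = 0.365). Within the Lo tumors r was 0.39 and within the Hi tumors 0.91, and the difference between them was not tested. In the 16 tumors outside the 4 of high chromosome 2 dosage described below, r was 0.87 (permutation p = 5e-05).

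The genes most like Asf1b over the 20 tumors were Pcna, the sliding clamp of DNA replication (r = 0.92), Dut, which hydrolyzes dUTP (r = 0.87), and Tyms, the thymidylate synthase (r = 0.87). The 3 were named as the highest r among 13831 genes of mean log2 CPM of at least 1, and none of them was in the proliferation list. Pcna and Dut lie on chromosome 2, whose dosage is described below. With Asf1b as the covariate 1.11% of 18882 genes passed (0.794% higher), and 9 of the 15 proliferation genes were higher.

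Asf1a (ENSMUSG00000019857, chr10:53596961-53609213), the paralog expressed also in resting cells, did not follow the score (slope 0.03 per SD, SE 0.038, edgeR adjusted p = 0.929). It ran from 13.4 CPM in tumor 9 through a median of 15.2 to 18.9 in tumor 22. Per kilobase it exceeded Asf1b in all 20 tumors, by a mean log2 ratio of 0.60 ± 0.28 (ratio 1.52), from a ratio of 1.12 in tumor 4 to 2.21 in tumor 22. The log2 ratio averaged 0.44 ± 0.22 in Lo and 0.73 ± 0.26 in Hi. The reads of Asf1a and Mcm9 overlap as given above, and the log2 CPM of these genes correlated with r = 0.0029.

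The promoter of Asf1b (RefSeq, GRCm38.p6, chr8:83955444-83955743, plus strand, 250 bases before to 50 after the start) is shown because Asf1b moved with the mitotic genes. The capitals mark CCAAT, here read on the other strand as ATTGG, and TTTGAA, the letters of a cell cycle element of mitotic promoters. These motifs were chosen after the values were seen.
Asf1b: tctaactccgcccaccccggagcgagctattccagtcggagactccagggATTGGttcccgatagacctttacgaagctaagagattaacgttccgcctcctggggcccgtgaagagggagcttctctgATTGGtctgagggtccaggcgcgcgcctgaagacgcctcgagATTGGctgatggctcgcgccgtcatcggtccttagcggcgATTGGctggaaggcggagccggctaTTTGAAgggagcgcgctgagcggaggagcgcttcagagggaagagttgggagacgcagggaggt
CCAAT occurred 4 times, starting 200, 121, 79 and 39 bases before the start, and TTTGAA once, 14 bases before it. Searched on both strands, CCAAT was held by 37.4% and TTTGAA by 17.9% of 32851 promoters of the same length, and 1.06% held 4 or more CCAAT. Of the 12 proliferation genes with a promoter in the table, 11 held CCAAT and 9 held TTTGAA. Among the other members H3f3b and Atrx also held 4 CCAAT and none held TTTGAA, and neither H3f3b (slope 0.03, SE 0.038, edgeR adjusted p = 0.916) nor Atrx (slope 0.01, SE 0.043, edgeR adjusted p = 0.983) followed the score. A further motif, TTT, any 2 bases and CGC, the letters of an E2F site, was searched in the same way and held by 5.17% of all promoters. It was not in the Asf1b window and occurred once each in those of Cabin1 and Hira, which did not pass against the score. A match is a description of the letters and not of a bound site.

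The other chaperones of newly made histones were read against the same score. Of 10 replicative histone chaperones 1 passed, Hat1, which acetylates new histone H4 (slope 0.18, SE 0.044, edgeR adjusted p = 0.0493), and 9 of 10 had a positive slope with a median of 0.06. Hat1 lay just inside the threshold and lost the call under 6 of 9 alternative settings and with 13 of the 20 tumors when each was left out. Chaf1a, the large subunit of the replication-coupled chaperone CAF-1, had a slope of 0.14 (SE 0.040, edgeR adjusted p = 0.111). Of 9 other histone chaperones and H3.3 partners 1 passed, Cenpa, the centromeric H3 variant (slope 0.27, SE 0.044, edgeR adjusted p = 0.000673), which lost the call without tumors 7 and 21 (slope 0.17, adjusted p = 0.287). Ssrp1, a subunit of the FACT complex, had a slope of 0.14 (SE 0.037, edgeR adjusted p = 0.0840). The heterochromatin partners Trim28, Setdb1, Cbx1, Cbx3, Cbx5 and Usp7 did not pass, and none of the 6 PML body genes did. The median slope of all genes was -0.0006.

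The interferon score, made in the same way from 18 interferon-stimulated genes, was read next because Pml and Daxx have been described as genes that interferon induces. It was highest in tumors 13 (1.95), 1 (1.90), 14 (1.39) and 4 (0.87), all labelled Lo, and lowest in tumor 18 (-1.66). Daxx had 30.7, 26.9, 27.9 and 31.5 CPM in these 4 tumors, its 4 highest values, and 21.4 CPM in tumor 18. Its slope was 0.13 log2 per SD of the score (SE 0.036, edgeR unadjusted p = 0.00135) and missed the threshold over all genes (adjusted p = 0.0841), while DESeq2 gave 0.13 with an adjusted p of 0.0416. The correlation was r = 0.65 (permutation p = 0.00233) with rho = 0.53 (permutation p = 0.0172), and r = 0.52 without tumors 13 and 1. It was 0.76 within the Lo tumors and 0.18 within the Hi tumors, and this difference was not tested. Leaving out the Hi tumor 6 brought the slope past the threshold (0.13, edgeR adjusted p = 0.0361).

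Pml (ENSMUSG00000036986, chr9:58218076-58249786) was at 68.8 CPM in tumor 19, a median of 80.5 and a highest of 119.8 in tumor 1. Tumors 1, 4 (104 CPM), 12 (103 CPM) and 13 (103 CPM) formed its upper end, and tumor 12 had the second lowest interferon score (-1.11). The slope of Pml on the score was 0.08 (SE 0.042, edgeR adjusted p = 0.668) and turned to -0.02 without tumors 13 and 1. No member passed against the interferon score, where 1.32% of 18883 genes did (1.22% higher), and the members' median slope was 0.02 against -0.00092 over all genes. Of the 6 PML body genes 1 passed, Sp100, which shares these bodies with PML (slope 0.43, SE 0.054, edgeR adjusted p = 1.25e-05). None of the 10 replicative chaperones and 9 other chaperones and H3.3 partners passed, nor did the heterochromatin partners named above, and Ssrp1 had a slope of 0.13 (SE 0.037, edgeR adjusted p = 0.102).

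**Figure D4:**
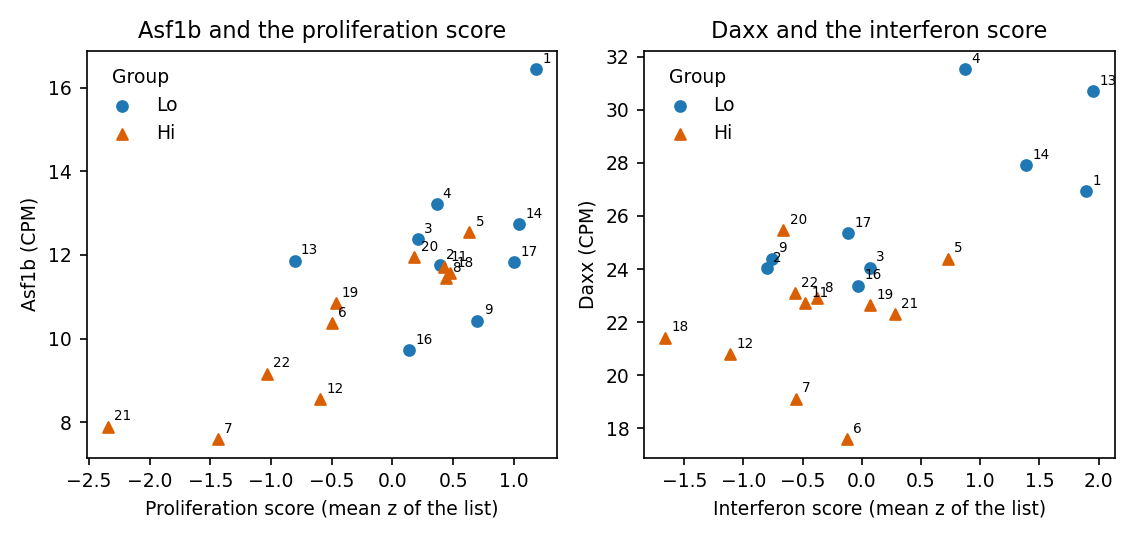
Asf1b in CPM against the proliferation score (left) and Daxx in CPM against the interferon score (right), 1 numbered point per tumor, circles for Lo and triangles for Hi. Tumors 7 and 21 hold the low end of the left plot, and tumors 1, 4, 13 and 14 the high end of the right plot.

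The promoter window of Daxx that starts farthest upstream (RefSeq, GRCm38.p6, chr17:33909195-33909494, plus strand; 1 of 3 windows given for Daxx) is shown for the same reason. It was searched on both strands for GAAA, any 2 bases and GAAA again, the core letters of an interferon-stimulated response element, and for CCAAT, which is marked in capitals.
Daxx: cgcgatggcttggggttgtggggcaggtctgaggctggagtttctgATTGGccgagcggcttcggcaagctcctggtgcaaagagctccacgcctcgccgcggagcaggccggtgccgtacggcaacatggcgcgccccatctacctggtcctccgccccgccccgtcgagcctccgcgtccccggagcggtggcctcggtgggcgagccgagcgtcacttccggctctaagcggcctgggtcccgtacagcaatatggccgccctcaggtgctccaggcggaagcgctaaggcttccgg
It held 1 CCAAT on the other strand, 204 bases before the start. The interferon element letters, held by 3.44% of all promoters, were in none of the 12 windows of the members.

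Genes were then read against the level of Daxx itself, with slopes per SD of its log2 CPM. Daxx was lowest in tumors 6 (17.6 CPM) and 7 (19.1 CPM). At an edgeR adjusted p below 0.05, 127 of 18882 genes passed (0.673%), 93 higher (0.493%) and 34 lower (0.18%) with Daxx. The number rested on single tumors: it was 21 without tumor 4 (14 higher) and 34 without tumor 7 (24 higher). Interferon-stimulated genes were prominent, with 11 of 18 higher, all 18 slopes positive and a median of 0.57 against 0.0027 over all genes. These 18 genes make up the interferon score. Their slopes restate the relation of Daxx with that score over the same 20 tumors, which missed the threshold above, and are no separate evidence for it. The largest among them were Rsad2, which blocks viral replication (slope 0.85, SE 0.142, edgeR adjusted p = 0.0107), Usp18, which removes ISG15 from proteins (slope 0.80, SE 0.180, adjusted p = 0.0418), and Ifit3 (slope 0.72, SE 0.168, adjusted p = 0.0477). With each tumor left out in turn, Rsad2 passed in 20 of 20 fits, Usp18 in 8, Aurka in 9 and Ifit3 in 5, and the number of interferon genes that passed was 1 without tumor 12 or 13 and 16 without tumor 6. Of the 15 proliferation genes 1 passed, the mitotic kinase gene Aurka (slope 0.23, SE 0.052, adjusted p = 0.0420). None of the 10 replicative chaperones, 6 PML body genes and 9 other chaperones and H3.3 partners passed, nor did the heterochromatin partners named above. Hipk2, a kinase known to bind DAXX, came nearest with a slope of -0.15 (SE 0.041, adjusted p = 0.0872, and 0.0219 by DESeq2). Hipk2 passed with Lo or Hi as a second term (slope -0.27, edgeR adjusted p = 0.0153). It also passed with the share of counts on ribosomal loci as that term (slope -0.14, edgeR adjusted p = 0.0243). In the 20 fits with each tumor left out it never passed. None of the other 9 members passed. Asf1b had the largest slope among them (0.17, SE 0.049, adjusted p = 0.122), and Atrx the lowest (-0.09, SE 0.038, adjusted p = 0.307). The slope was 0.07 for Pml, 0.07 for H3f3b and -0.04 for H3f3a.

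The genes whose level was most like that of Daxx all lay on chromosome 2, not on its own chromosome 17. They were Gm20458 (r = 0.88), Dbndd2 (r = 0.87), Rgs19 (r = 0.85), Rtfdc1 (r = 0.84) and Ogfr (r = 0.83), and the same 5 values were 0.80 to 0.88 within the Lo tumors and 0.67 to 0.88 within the Hi tumors. The lowest values were those of Luzp2 (r = -0.83), Bche, which encodes butyrylcholinesterase (r = -0.82), Spire1 (r = -0.79), Abcg2, a drug efflux transporter (r = -0.79), and Sema6a (r = -0.78). These r values are descriptions over 20 tumors that chose the genes. Of the 93 genes higher with Daxx, 36 (38.7%) lay on chromosome 2, which held 8.23% of the genes tested, and 6 (6.45%) lay on chromosome 17, which held 4.87%. Chromosome 2 also held 28 of the 163 genes higher with the proliferation score (17.2%) and 40 of the 230 higher with the interferon score (17.4%), and whether its share differed between these fits was not tested. Of the 34 genes lower with Daxx, 5 (14.7%) lay on chromosome 18, which held 2.68% of the genes tested.

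**Figure D5:**
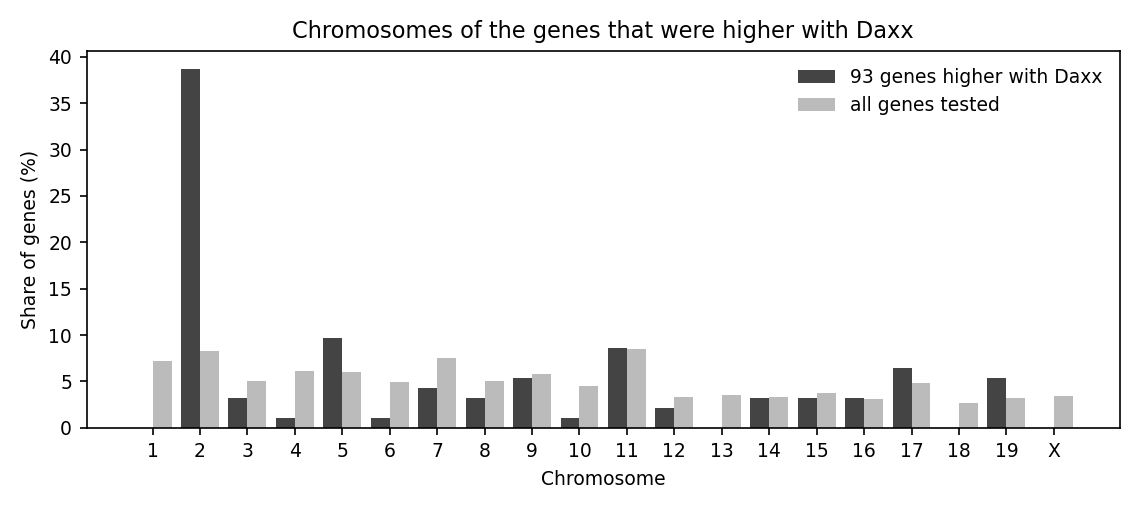
Share (%) of the 93 genes higher with Daxx (dark bars) and of all genes tested (light bars) on each chromosome, the vertical axis starting at 0. Chromosome 2 holds 38.7% of the former and 8.23% of the latter.

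Chromosome 2 dosage, examined after these values were seen, stood apart in 4 tumors, all labelled Lo. It was 0.23 in tumor 1, 0.20 in tumor 4, 0.17 in tumor 17 and 0.12 in tumor 13, against -0.05 to 0.04 in the other 16. Daxx had 26.9, 31.5, 25.3 and 30.7 CPM in these 4 tumors and 17.6 to 27.9 CPM in the others, so the levels overlapped. Within the 16 other tumors Daxx gave r = 0.08 with chromosome 2 dosage (permutation p = 0.759) and rho = 0.03 (permutation p = 0.916), and r = 0.40 with the interferon score (permutation p = 0.119) and rho = 0.23 (permutation p = 0.397). With chromosome 2 dosage as a second term, 0 genes passed against Daxx by the edgeR quasi-likelihood test, with 1803 at an unadjusted p below 0.05, and the slope of Daxx on the interferon score was 0.09 (edgeR adjusted p = 0.441). With Lo or Hi as a second term 6 genes passed, Hipk2 among them but no interferon gene. With the proliferation score 9 genes passed, 1 of them an interferon gene. The dosage and the interferon score were not high in the same tumors throughout: tumor 17 had a score of -0.11, and tumor 14, with a score of 1.39, was not among the 4. Over the 20 tumors the score gave r = 0.63 with chromosome 2 dosage (permutation p = 0.00367) and rho = 0.32 (permutation p = 0.169). Daxx gave r = 0.62 with that dosage (permutation p = 0.00374) and rho = 0.47 (permutation p = 0.0384). Without tumors 1 and 4 these r values were 0.45 for the score and 0.46 for Daxx. The part of the dosage, the score and the label in the Daxx pattern was not tested separately.

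The dosage of chromosome 18 also moved with Daxx. Of 20 chromosomes compared it gave the largest r in size, -0.69 (rho -0.67), and -0.66 without tumors 13 and 3. Its dosage ran from -0.08 in tumor 13 to 0.04 in tumor 16, without separate groups of tumors. Asf1b gave r = -0.62 (rho -0.62) with the same dosage, and -0.67 without those 2 tumors. Chromosome 18 was not alone. Daxx gave r = -0.52 (rho -0.50) with chromosome 16 dosage, and -0.69 without tumors 2 and 3. With X chromosome dosage Daxx gave r = -0.56 (rho -0.32), and -0.22 without tumors 4 and 13. These r values were picked from 20 chromosomes after they were seen and are descriptions. Asf1b had 16.4, 13.2, 11.8 and 11.9 CPM in the 4 tumors of high chromosome 2 dosage (1, 4, 17 and 13) and 7.59 to 12.7 CPM in the other 16, within which its r with chromosome 2 dosage was 0.11 (permutation p = 0.691) and its rho 0.13 (permutation p = 0.638). Over all 20 tumors Asf1b gave r = 0.56 with chromosome 2 dosage (permutation p = 0.0101) and rho = 0.47 (permutation p = 0.0392). That r was 0.26 without tumors 1 and 4.

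The neighbours of Daxx did not show its pattern at the threshold. Of the 3 tested genes on each side none passed against the Daxx level. Tapbp, which loads peptide on MHC class I, had the lowest adjusted p (slope 0.15, SE 0.047, edgeR adjusted p = 0.150). Zbtb22 (slope 0.05), Gm19412 (slope 0.11) and Kifc1 (slope 0.11) had edgeR adjusted p-values of 0.579, 0.454 and 0.521. Daxx and chromosome 17 dosage gave r = 0.51 (permutation p = 0.0239), adjusted p = 0.119 over all genes, with rho = 0.21 (permutation p = 0.368), and r fell to 0.02 without tumors 4 and 6, so the relation rested on those tumors.

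Atrx (ENSMUSG00000031229, chrX:105797615-105929397), the partner of DAXX, ran from 120.5 CPM in tumor 13 through a median of 155 to 184 in tumor 2. The tumors with the most Daxx were among those with the least Atrx, tumor 13 with 30.7 CPM of Daxx and tumor 4 with 31.5 CPM of Daxx and 123 of Atrx. Tumor 14, also high in Daxx, had 162 CPM of Atrx. Over the 20 tumors r between the genes was -0.51 and rho -0.33, and the fit against Atrx gave Daxx a slope of -0.10 (SE 0.040, edgeR adjusted p = 0.140). Atrx followed the dosage of the X chromosome with r = 0.72 (permutation p = 0.00032) and rho = 0.75 (permutation p = 0.00019), and r = 0.57 without tumors 4 and 13. It was 0.87 within Lo and 0.62 within Hi. The X chromosome dosage, with Atrx kept in, ran only from -0.09 in tumor 4 to 0.06 in tumor 2. Atrx was not compared with the dosage of other chromosomes, so whether the relation was particular to the X chromosome was not tested. Atrx also gave r = 0.53 with the share of counts on ribosomal loci and 0.47 with the total count. The part of each of these in the Atrx level was not tested. Genes most like Atrx were 4932438A13Rik on chromosome 3 (r = 0.93), Ccdc88a on chromosome 11 (r = 0.91) and Xiap, an X-linked inhibitor of caspases (r = 0.90). Against the Atrx level 736 genes passed (3.9% of 18882), and no other member.

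Hira and Ubn1, subunits of the HIRA complex, had the lowest SDs of the 10 genes, while the SD of log2 CPM of Cabin1 (0.164) was close to those of H3f3b (0.163) and Asf1a (0.158). Hira (ENSMUSG00000022702, chr16:18877037-18970309), its histone-binding scaffold, lay between 35.7 CPM in tumor 8 and 43.7 in tumor 18 with a median of 40.0. No gene passed against its level by the edgeR quasi-likelihood test, with 1509 (7.99%) at an unadjusted p below 0.05. The fit missed even Gm28539, whose log2 CPM followed Hira with r = 0.94, so it cannot show that no gene varied with Hira. Counts of passing genes were not compared between members. Ubn1 (ENSMUSG00000039473, chr16:5050068-5086285), which gives the complex its preference for H3.3, lay between 76.3 CPM in tumor 20 and 102 in tumor 17 with a median of 86.1, and 1 gene passed (0.0053%). Cabin1 (ENSMUSG00000020196, chr10:75646110-75764357) varied more, from 50.4 CPM in tumor 14 through a median of 66.3 to 79.7 in tumor 4, and 1943 genes passed against its level (10.3% of 18882). Hira and Ubn1 were not among them. Apart from Gm28539, whose reads overlap its own, the genes most like Hira were Trim28 (r = 0.77) and Cct3 (r = 0.76). Those most like Ubn1 were Hey1 (r = 0.84), Fam168b (r = 0.83) and Zfp526 (r = 0.83), and those most like Cabin1 were Gm3052 (r = 0.91), Slc4a3 (r = 0.91) and Nisch (r = 0.90).

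Cabin1 and H3f3b moved in opposite directions with RNA that stays in the nucleus. The score of the nuclear-retained RNAs Malat1, Neat1 and Kcnq1ot1, whose summed level with Miat ranged from 1701 to 5804 CPM between tumors, gave r = 0.73 (rho 0.72) with Cabin1 and r = -0.77 (rho -0.76) with H3f3b. The values without tumors 20 and 7 were 0.68 and -0.70. Asf1a gave r = -0.57 (rho -0.51) and H3f3a r = -0.48 (rho -0.44) with the same score, and -0.55 and -0.73 without those tumors. The remaining members lay between r = -0.24 (Daxx) and 0.35 (Atrx). Tumor 20 had the lowest score (-1.71), the highest H3f3b (509 CPM) and 58.5 CPM of Cabin1, and tumor 7 had the highest score (1.49), 362 CPM of H3f3b and a Cabin1 level that only tumors 4 and 18 exceeded. Cell type markers moved with these values. The nuclear RNA score gave r = -0.65 with the leukocyte score and -0.71 with the epithelial score, Cabin1 gave -0.57 with each of these, and H3f3b gave 0.36 and 0.60. These are descriptions of whole tumor pieces, and the part of the nuclear RNA, leukocyte or epithelial share in the level of each gene was not tested. The genes most like H3f3b were Psmc1 (r = 0.88), Chmp2a (r = 0.86) and Ubxn1 (r = 0.85), those most like Asf1a were Lsm5, Gm28437 and Gm10131 (r = 0.87 each), and those most like Pml were Ldhd (r = 0.91), Ppp1r26 (r = 0.84) and Rabl6 (r = 0.83). For H3f3a they were Gm17275, Gm6206 (r = 0.93) and Rfwd2 (r = 0.90), which lies on chromosome 1.

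The members did not move as 1 group. Among their 45 pairs 23 correlations were positive and 22 negative, with a median of 0.07. No pair passed the edgeR test in any of the 10 fits with a member as covariate. In these fits the share of all genes that passed was 0.101% for Asf1a, 0.54% for Pml, 6.06% for H3f3b and 6.46% for H3f3a beside those given above. At an unadjusted edgeR p below 0.05 they held 1232 (Ubn1) to 5147 (Cabin1) of 18882 genes, and 0 to 2 of the 9 other members. By permutation the unadjusted p of r was below 0.05 for 7 of the 45 pairs, and an excess over all genes was not tested. The highest was Daxx with Asf1b (r = 0.63, unadjusted permutation p = 0.00296, rho 0.80, unadjusted permutation p = 8e-05), and it was r = 0.57 in the 16 tumors of lower chromosome 2 dosage (permutation p = 0.0191). Cabin1 and Pml followed with r = 0.56, Asf1a and H3f3b with r = 0.55, and the lowest was Cabin1 with H3f3a (r = -0.54).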

How the data were processed

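Tumor RNA (miRNeasy, TruSeq mRNA libraries, HiSeq4000) was sequenced by the authors in paired reads trimmed to 100 bases and processed with MapRseq. The submitters' processing notes name TopHat2 2.0.12, featureCounts 1.4.4 and the mouse build mm10. The strand setting, the annotation release and the treatment of reads that overlap 2 genes are not given in the sources used here. The deposited file holds raw counts per gene, with no normalization and no pooling, and both alleles together.

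The members and gene lists were chosen with earlier results of these data known. Counts of 18883 genes that passed filterByExpr were scaled by TMM and fitted with edgeR 4.0.16 (quasi-likelihood test, R 4.3.3), with Benjamini-Hochberg adjustment over all genes and a threshold of 0.05. The covariate was the Lo or Hi label, unscaled, or a score or a member's level scaled to an SD of 1. It was fitted alone. Log2 CPM used a prior count of 2. Correlations used 100000 permutations, two-sided, in Python 3.11.15 with numpy 2.4.6. DESeq2 1.42.0, RLE scaling, no filter on low counts, totals without the ribosomal loci Yam1 and AY036118, second terms, and the removal of tumors were alternatives. Cd2 and Miat did not pass the filter. Named genes were the members, up to 3 genes per list and fit past the threshold with the largest slope, the 5 genes of highest and lowest r with Daxx, the 3 of highest r with each other member, and 3 neighbours of Daxx on each side. Chaf1a, Ssrp1, Hipk2 and the genes named for overlaps were added after values were seen. On simulated counts for 18883 genes with 200 changed, the fit on Daxx recovered 176 at a log2 slope of 0.5 with 12 false calls. The Lo and Hi fit recovered 162 at a log2 difference of 1 with 4. The members' own effects were smaller, reaching 0.17 against Daxx and -0.26 between Lo and Hi. The simulation does not show how often effects of that size would pass. Promoters came from the RefSeq table, which held all 10 members in 12 windows.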

Additional observations from a re-analysis of the deposited data

Results flagged for a closer look

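Within the 9 Lo tumors, 10 member levels and both log2 ratios between paralogs were examined for a tumor far from the others, 12 sets in all, of which chance flags about 1 in 20. H3f3a in tumor 4, at 145.2 CPM, was separated from the next tumor by 0.59 of the whole range on a log2 scale. The log2 ratio of H3f3b to H3f3a in the same tumor, 1.78, was separated by 0.64 of the range, and it rests on the same H3f3a value. Tumor 4 had the lowest chromosome 1 dosage (-0.30), and its part in these values was not tested.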

How the results depend on the processing

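Genes past the threshold between Lo and Hi numbered 1 instead of 0 by DESeq2, without the filter and with the interferon score as a second term. For proliferation the number went from 206 to 379 by DESeq2, to 50 without tumors 7 and 21 and to 106 to 229 with each tumor left out (106 without Hi tumor 21). For interferon it went from 250 to 128 without tumors 1 and 13, and to 188 to 277 with each tumor left out. Against the Daxx level it went from 127 to 317 by DESeq2, 294 without the filter, 6 with the Lo or Hi term, 83 with the leukocyte score, 79 without tumors 4 and 6, 9 with the proliferation score, 74 with the interferon score and 0 with chromosome 2 dosage, and to 21 to 161 with each tumor left out. The lowest of these were 21 without tumor 4, 34 without tumor 7, 48 without tumor 12 and 60 without tumor 1. It was 69 to 82 without tumor 8, 11, 5 or 22. The interferon genes among them numbered 1 to 16 with each tumor left out. Between Lo and Hi no gene passed with any tumor left out.

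The Pml slope on interferon turned to -0.022 without tumors 1 and 13 and to -0.058 with chromosome 2 dosage, and its slope on Daxx to -0.057 with that dosage. With the interferon score, slopes on Daxx turned to -0.031 for Ifit3, -0.00761 for Sp100 and -0.076 for Gm19412. Own-chromosome r moved for Daxx to 0.024 and for Ubn1 to -0.48 (p below 0.05 by permutation) without the 2 farthest tumors, turned for Hira to -0.098 and for H3f3b to -0.15 there, and on log2(RPKM + 1) turned for Hira to -0.13, for Asf1a to -0.050 and for Asf1b to 0.062. The H3f3b to H3f3a log2 ratio moved to 0.24 with Gm17275 added. The cause of these changes was not tested. The Asf1b slope on proliferation stayed past the threshold with each tumor left out (0.18 to 0.23, edgeR adjusted p 0.00152 to 0.0386).

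Tumors of the same replicate number gave r from -0.42 to 0.21 over 9 pairs, above 0.1 in 3. The labels state no pairing, and these r values cannot show whether such tumors were paired. With the replicate block 0 genes passed between Lo and Hi, 872 had an unadjusted p below 0.05, and the Daxx difference was -0.26. The terms added after seeing the data were the interferon score, chromosome 2 dosage, the proliferation score outside the Daxx fit, the removal of the 3 tumors of lowest chromosome 1 dosage, and the Gm17275 reads. Counts cannot show reads lost to overlapping genes, and the Lo and Hi labels have no stated meaning.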
